A study of Mus musculus with 5 samples.

Results

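The miR-290 and miR-302 clusters encode the microRNAs for which pluripotent mouse cells are best known, and the peaks of 4 histone marks around both were examined in EpiSC9, an epiblast stem cell line of the mouse. The members were chosen by position: a peak belonged to a cluster when it overlapped, by 1 bp or more, a window on mm9 from 3195000 to 3240000 of chromosome 7 (45 kb, the genes Mir290 to Mir295) or from 127225000 to 127275000 of chromosome 3 (50 kb, the Mir302b, Mir302c, Mir302a, Mir302d and Mir367 genes, called miR-302 here). The windows held 33 of the 156288 peaks in the 4 lists, 13 at miR-290 and 20 at miR-302. EpiSC9 cells represent primed pluripotency, and the culture contained FGF2 at 10 ng/ml and a feeder layer of irradiated fibroblasts. Each immunoprecipitation used 5000000 crosslinked cells. Antibodies against H3K4me1, H3K4me3, H3K27ac and H3K27me3 gave 1 library each, without replicates and all from the same line, and an input library was not used here. No other cell state or treatment was analysed, so the values below describe 1 culture condition, with no test between conditions. The share of signal contributed by the feeders was not tested.

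A microRNA is a short RNA that guides a silencing complex to messenger RNAs, mainly by pairing through its seed. Several hairpins are often cut from a single long primary transcript, whose promoter carries the same histone marks as that of a coding gene. In mouse cells the miR-290 cluster is known as the most abundant microRNA group of naive embryonic stem cells, and miR-302, with miR-367, as a cluster that becomes prominent in primed cells and the early embryo. H3K4me3 lies at active or poised promoters, H3K27ac at active promoters and enhancers, H3K4me1 at enhancers and the flanks of promoters, and H3K27me3 at genes silenced by Polycomb.

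The mature sequences are shown because the clusters share a seed although they lie on different chromosomes. RefSeq entries on GRCm38.p6 matched 9 genes of the miR-290 cluster and 5 of the miR-302 cluster, with 26 mature sequences between them, where miR-292a and miR-302a are listed by their 5p arms. Counts below are of these listed entries. Sequences run 5′ to 3′, and capitals mark the seed, bases 2 to 8. The seed AAGUGCU was carried by 5 of the 1679 distinct mature entries of the table, and all 5 belonged to these clusters, with 3 listed for miR-290 and 2 for miR-302:
miR-291a-3p: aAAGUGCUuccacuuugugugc
miR-294-3p: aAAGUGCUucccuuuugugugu
miR-295-3p: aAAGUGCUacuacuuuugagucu
miR-302b-3p: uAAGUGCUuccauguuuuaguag
miR-302d-3p: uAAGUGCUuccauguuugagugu

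Near relatives of that seed are shown because they hold its first 6 letters. These letters, AAGUGC, read on the mature strand, stood within bases 1 to 8 of 6 of 17 listed miR-290 entries and 3 of 9 listed miR-302 entries. In the whole table, both arms included, they did so in 18 of 1679 entries (1.07%). Within the 3p arm alone the counts were 6 of 8 for miR-290 and 3 of 4 for miR-302. The letters were taken from the shared seed, and the 18 include these members, so the contrast is partly built in. The members not shown above are:
miR-290a-3p: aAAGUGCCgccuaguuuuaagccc
miR-291b-3p: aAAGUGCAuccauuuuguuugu
miR-290b-3p: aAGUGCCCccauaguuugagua
miR-302c-3p: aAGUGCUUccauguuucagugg

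Other members do not hold these letters near the 5′ end and are shown for contrast. miR-367-3p, encoded beside miR-302, has the seed AUUGCAC, and miR-293-3p has GUGCCGC. The 5p arms of miR-290a, miR-292a and miR-293 share the seed CUCAAAC, and those of miR-302b, miR-302c and miR-302d share CUUUAAC, and no seed of the listed 5p arms was common to both clusters:
miR-367-3p: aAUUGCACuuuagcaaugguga
miR-293-3p: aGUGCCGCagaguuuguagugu
miR-290a-5p: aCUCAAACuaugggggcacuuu
miR-302b-5p: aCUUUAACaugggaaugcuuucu

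The hairpins neighbour coding genes, which bears on what an H3K4me3 peak in a window can stand for. In the RefSeq table of GRCm38.p6, used for names and order alone because the peaks are on mm9, the miR-302 hairpins lie inside Larp7, which encodes a protein that binds the 7SK RNA, and on the opposite strand, with Zgrf1 next in order. The miR-290 hairpins lie within the span of Nlrp12, a gene of the NOD-like receptor family, and overlap the noncoding RNA D7Ertd143e. Positions of these genes on mm9 were not used here, so no peak below is assigned to a transcript. A peak in the miR-302 window may therefore belong to Larp7 or Zgrf1 as well as to the microRNAs. In the same way, a peak in the miR-290 window may belong to Nlrp12.

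All 3 active marks were present at both clusters. The miR-290 window held 2 H3K4me3 peaks over 2.89 kb, 5 H3K27ac peaks over 17.9 kb and 6 H3K4me1 peaks over 15.5 kb. The miR-302 window held 3 H3K4me3 peaks over 3.90 kb, 8 H3K27ac peaks over 11.0 kb and 8 H3K4me1 peaks over 13.5 kb. H3K27ac thus took 39.8% of the miR-290 window and 21.9% of the miR-302 window, whereas H3K4me3 took 6.42% at miR-290 and 7.80% at miR-302. H3K27me3 had 0 peaks at miR-290 and 1 at miR-302.

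**Figure D1:**
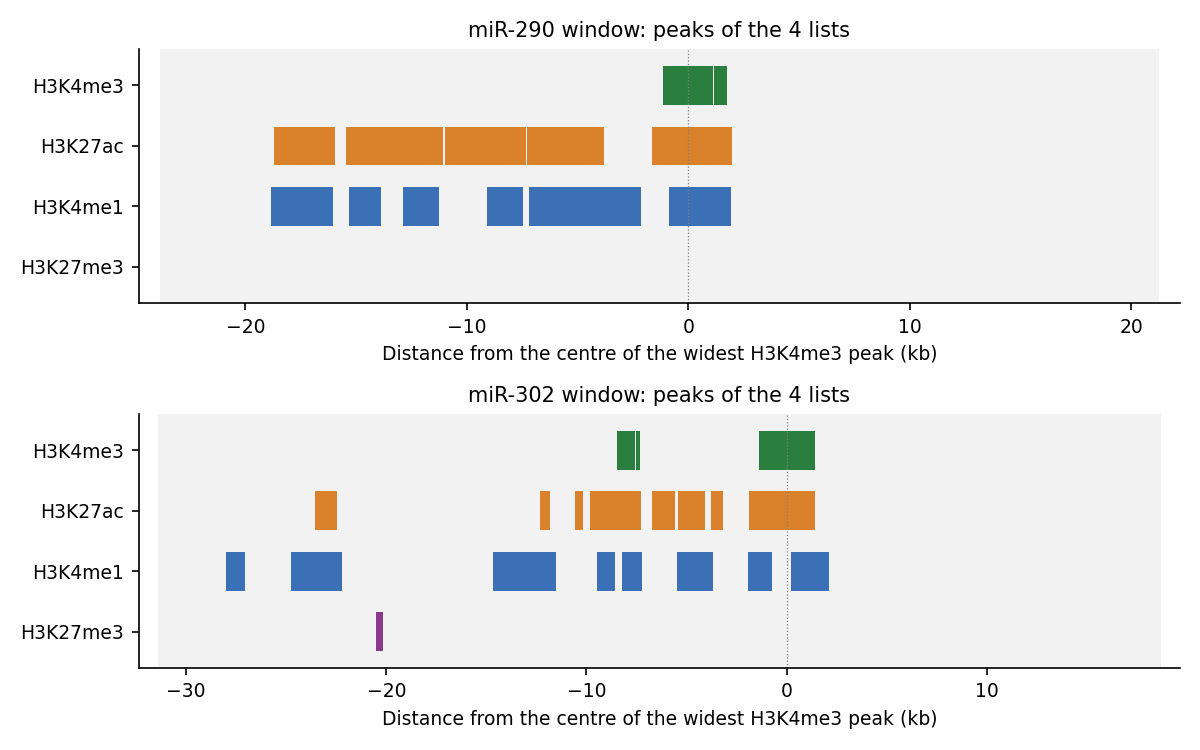
Positions of the peaks of each list (rows) in the miR-290 window (top) and the miR-302 window (bottom), in kb from the centre of the widest H3K4me3 peak of the window; grey marks the window. At miR-290 all but the last of the 5 H3K27ac peaks fill most of the stretch before a single H3K4me3 site, which the last overlaps. At miR-302 2 H3K4me3 sites 5.93 kb apart have shorter H3K27ac peaks between them.

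H3K4me3 marked 1 site at miR-290. The main peak, on chromosome 7 from 3217668 to 3219945, was 2.28 kb wide and scored 3100, the level at which many scores of the list stop. The score is the authors' own value for each peak and ranks peaks within a list only. Of the H3K4me3 list, 10.0% was at least as wide, and 25.4% (7359 of 28941 peaks) reached that score. After a gap of 9 bp came a second peak of 609 bp that ended at 3220563 and scored 126.51, which 76.5% of the list equalled or passed. The second was thus both narrower and weaker than the first.

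At miR-302 the same mark formed 2 separate sites. The wider lay on chromosome 3 from 127254966 to 127257753, measured 2.79 kb and scored 3100, and 4.66% of the list was as wide. The other site, 5.93 kb before it, held a peak of 897 bp from 127247897 to 127248793 with a score of 1243.79, which 44.6% of the list reached. A sliver of 215 bp followed it after 29 bp, with a score of 186.59, and 98.8% of the list was at least as wide as that sliver. The 897 bp peak was thus near the middle of the list by width and by score, and the wide peak was high in it by width.

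Every H3K4me3 peak of both windows carried H3K27ac and H3K4me1, 2 of 2 at miR-290 and 3 of 3 at miR-302, against 43.6% of all H3K4me3 peaks. At miR-302 this rested on weak H3K4me1 peaks: once each list was limited to peaks of its median score or more, 1 H3K4me3 peak had both marks at miR-290 and 0 at miR-302. All 5 also lay whole inside an H3K27ac peak, which held for 16.1% of the list. These counts are not of separate sites. The peaks of 609 bp and 215 bp lay 9 bp and 29 bp from a wider neighbour and shared its H3K27ac peak. H3K4me1 left parts of the 3 wider H3K4me3 peaks uncovered. It covered 87.4% of the main peak at miR-290, against 66.5% of the wide peak and 74.1% of the 897 bp peak at miR-302. Over the 7359 H3K4me3 peaks that scored 3100 or more, the median covered by H3K4me1 was 69.9% (interquartile range 50.9 to 85.4), so the miR-290 peak stood above the upper quartile and the wide miR-302 peak close to the median. In the wide peak the uncovered part lay in the middle, as a gap of 935 bp between H3K4me1 peaks on either side.

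Of the 3 active marks, H3K27ac differed most in covered length between the clusters. The 5 peaks at miR-290 measured, from low to high position, 2.76, 4.38, 3.65, 3.50 and 3.63 kb, against a list median of 818 bp. Their scores were 1765.5, 3100, 931.08, 3100 and 3100 in that order. All 5 were far above the list's median score of 163.16. The widest, on chromosome 7 from 3203345 to 3207724, ranked 365 of 33600 by width, and 1.09% of the list was as wide.

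The first 4 of these peaks nearly touched, with gaps of 502, 102 and 26 bp, and 2150 bp separated them from the last. Only the last of the 5, from 3217157 to 3220790, overlapped H3K4me3, and the other 4 lay 2.66 to 14.8 kb before the first H3K4me3 base. Over the 17.6 kb between the first H3K27ac base and the first H3K4me3 base, H3K27ac covered 84.2% and H3K4me1 71.3%.

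The 8 H3K27ac peaks at miR-302 were of very unequal size. Those under the H3K4me3 sites measured 2.53 kb (127246544 to 127249075) and 3.29 kb (127254494 to 127257778), and both scored 3100, a score that 3.06% of the list reached or passed. The remaining 6 measured 423 to 1382 bp and scored 59.17 to 358.04. Of these, 2 were at or above the list's median score and 4 below it. Between the H3K4me3 sites H3K27ac covered 61.2% of the bases and H3K4me1 41.5%, so the stretch from one site to the other was largely but not wholly acetylated.

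**Figure D2:**
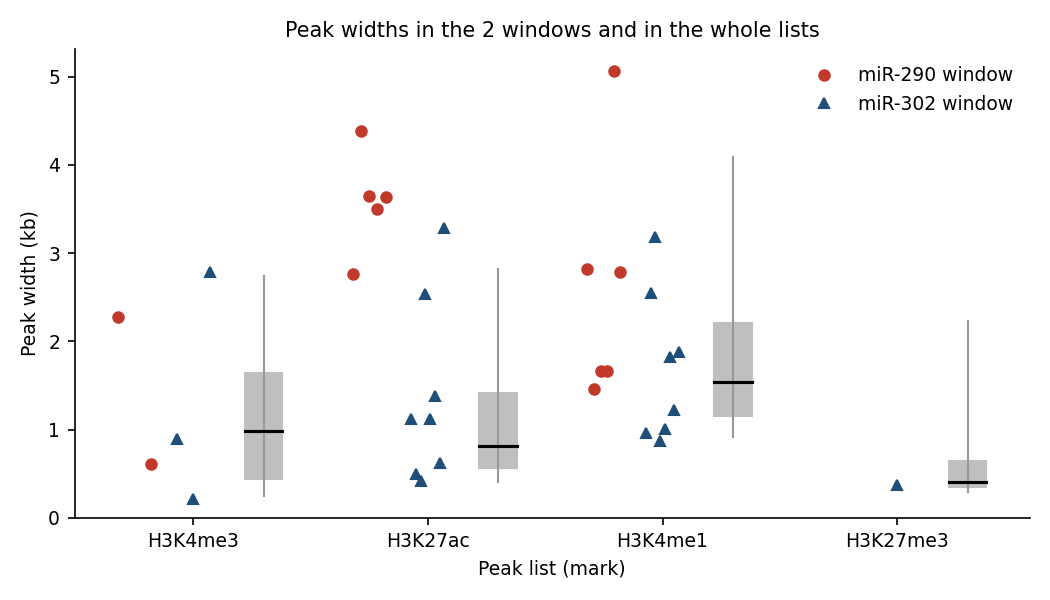
Width in kb of each peak in the miR-290 window (circles) and the miR-302 window (triangles), left of the distribution of its whole list (box, interquartile range; black line, median; whisker, 5th to 95th percentile). Of the H3K27ac peaks at miR-290, 2.76 to 4.38 kb wide, 4 of 5 lie above the whisker of the list, while 6 of 8 at miR-302 lie at or below 1.38 kb.

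H3K4me1 accompanied the acetylation at miR-290. All 6 H3K4me1 peaks of the window overlapped H3K27ac, and 7 of 8 did at miR-302, against 30.9% of all H3K4me1 peaks. With lists limited to peaks of median score or more, 1 of 2 did at miR-302. The peak from 3211619 to 3216687 on chromosome 7 was the widest of either window at 5.07 kb, with a score of 552.94, and 2.54% of the list was as wide. It ended 980 bp before the H3K4me3 site, just inside the 1 kb within which an element was not counted as distal. The remaining 5 at miR-290 measured 1.46 to 2.82 kb and scored 97.2 to 381.1.

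At miR-302 the H3K4me1 peaks were weaker. Their scores ran from 50.35, near the lowest of the list, to 295.19, and 2 of 8 reached the list's median of 128.18, against 4 of 6 at miR-290. The strongest, of 3.18 kb (127241673 to 127244850) and 2.55 kb (127231614 to 127234159), lay away from H3K4me3, and H3K27ac covered 15.5% and 44.0% of them. The peaks on the H3K4me3 sites or within 131 bp of them had lower scores than these, 50.35 and 59.88 at the first site and 78.06 and 124.88 at the second. The first H3K4me1 peak of the window, 962 bp wide with a score of 54.81, overlapped no other mark.

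Elements away from promoters, taken as H3K4me1 peaks with no H3K4me3 peak within 1 kb, numbered 4 in each window. H3K27ac lay on 4 of 4 at miR-290 and on 3 of 4 at miR-302, against 18.7% of all such elements. The acetylated ones at miR-290 lay 6.30 to 14.9 kb from the nearest H3K4me3, and those at miR-302 lay 1.84 to 13.7 kb from it. At miR-290 H3K27ac covered 95.1% or more of each of these elements. At miR-302 it covered 15.5%, 44.0% and 83.3% of the 3 acetylated ones.

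Counted from the acetylated side, sharing with H3K4me1 was common in the whole list too. H3K4me1 lay on 5 of 5 H3K27ac peaks at miR-290 and 6 of 8 at miR-302, against 77.8% of the list, so these counts are near the background. H3K4me3 lay on 1 of 5 at miR-290 and 2 of 8 at miR-302, against 42.1% of the list. The 2 acetylated peaks at miR-302 with neither H3K4 mark measured 423 bp and 1115 bp and lay 1.70 kb and 616 bp from H3K4me3.

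Base by base, the combination of marks separated the clusters. Of the 19.8 kb under any active mark at miR-290, 56.0% carried H3K27ac with H3K4me1 and no H3K4me3, against 26.6% of 17.2 kb at miR-302 and 10.6% over all chromosomes. H3K4me1 alone took 9.21% at miR-290, 36.1% at miR-302 and 65.1% over all chromosomes. All 3 marks met on 13.2% of the marked bases at miR-290 and 15.9% at miR-302, and on 6.45% over all chromosomes. H3K4me3 without H3K27ac took 0% at both, whereas over all chromosomes it took 8.61% together with H3K4me1 and 2.41% alone. These shares are descriptions, since neighbouring bases under a peak are not independent.

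**Figure D3:**
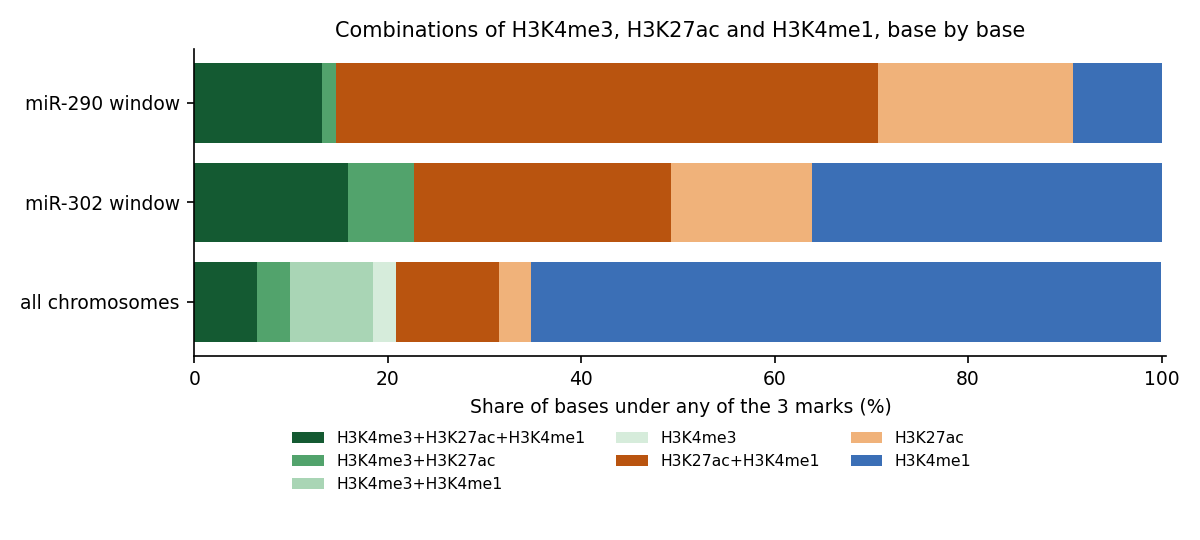
Share of the bases under H3K4me3, H3K27ac or H3K4me1 peaks that carried each combination of the marks, in the miR-290 window, the miR-302 window and over all chromosomes. H3K27ac with H3K4me1 takes 56.0% at miR-290, 26.6% at miR-302 and 10.6% over all chromosomes.

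The covered lengths were set beside those of windows of equal length laid end to end along every chromosome. H3K27ac covered as much as at miR-290 in 25 of 58677 windows of 45 kb (0.0426%, 95% Wilson interval 0.0289 to 0.0629), and as much as at miR-302 in 268 of 52807 windows of 50 kb (0.508%, 0.450 to 0.572). For H3K4me1 the shares were 2.65% at miR-290 and 4.68% at miR-302, and for H3K4me3 they were 6.51% at miR-290 and 4.15% at miR-302. All 3 marks at once reached the miR-290 lengths in 16 windows and the miR-302 lengths in 129. Most of the genome is without H3K4me3, and among the 14757 windows of 45 kb that hold it the H3K27ac share was 0.156% for miR-290, while among 14202 of 50 kb it was 1.70% for miR-302. The 2 windows were placed around loci of interest and the others on a fixed grid that can divide a run of peaks, so these shares favour the microRNA loci and carry no test.

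**Figure D4:**
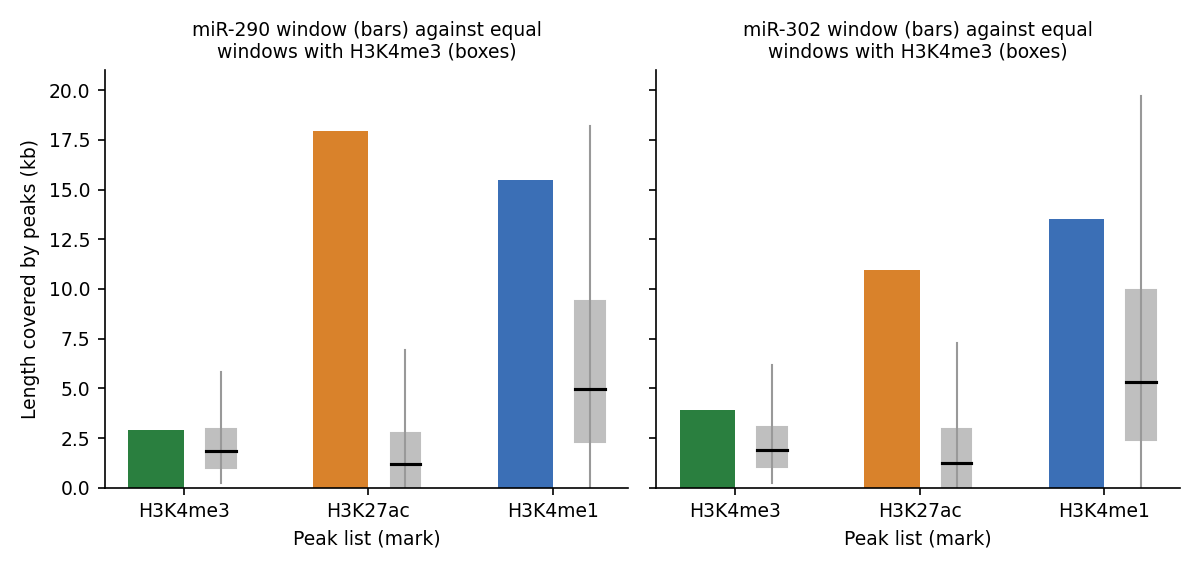
Length in kb covered by peaks of each mark in the miR-290 window and the miR-302 window (bars), left of windows of equal length that hold an H3K4me3 peak (box, interquartile range; black line, median; whisker, 5th to 95th percentile). H3K27ac, at 17.9 kb and 11.0 kb, is above the 95th percentile in both panels, while H3K4me3 and H3K4me1 lie within the whiskers.

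H3K27ac peaks were joined across gaps of at most 12500 bp, a joining distance common in lists of super-enhancers. Clusters were ranked by covered length, not by signal, and peaks on H3K4me3 were kept, so no cluster is called a super-enhancer here. All 5 peaks at miR-290 fell in a single cluster from 3200083 to 3220790. All 8 at miR-302 fell in a single cluster from 127232799 to 127257778. The miR-290 cluster ranked 84 of 16953 by covered length, inside the top 1% of 170 clusters, whose smallest covered 13.7 kb and whose median was 17.9 kb. The miR-302 cluster ranked 304, with 11.0 kb, and lay outside that group, but with peaks joined within 5 kb it ranked 165 of 20733 (9.85 kb), inside the top 1%. H3K27ac filled 86.6% of the span at miR-290 and 43.9% at miR-302. The median over the top 170 was 44.3% (interquartile range 34.8 to 55.2), and 3 of them, miR-290 counted, were filled as far as miR-290.

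The acetylated lengths lay further apart away from H3K4me3. Without H3K27ac peaks within 1 kb of an H3K4me3 peak, miR-290 held 4 peaks over 14.3 kb and ranked 29 of 10674 clusters. miR-302 held 5 peaks over 4.04 kb and ranked 714. No replicate exists with which to test the difference in length between the loci.

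H3K27me3 peaks were few at both clusters. At miR-290 no H3K27me3 peak was listed, as in 90.0% of windows of 45 kb and 73.7% of those with H3K4me3. At miR-302 1 peak was listed, whereas 89.2% of windows of 50 kb and 72.7% of those with H3K4me3 held none. The single peak at miR-302, on chromosome 3 from 127235831 to 127236202, was 372 bp wide with a score of 61.18, and 62.2% of the H3K27me3 list scored as high. It overlapped no other mark, as did 55.1% of that list, and lay 11.7 kb from H3K4me3. Neither cluster therefore held a base under both H3K4me3 and H3K27me3 peaks, the pairing known as bivalent. The share of all H3K4me3 peaks that overlap H3K27me3 is not given here, so this lack of overlap does not set the clusters apart. Reads were not analysed, and a level below the authors' threshold would leave no peak.

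Both groups of peaks ended abruptly on the side of higher positions. At miR-290 the 13 peaks spanned 20.8 kb, of which 94.7% was under at least 1 mark. The next peak beyond, of H3K4me1 with a score of 76.6, came after 40.4 kb, and the one before, of H3K27ac with a score of 59.83, after 15.2 kb. At miR-302 the 20 peaks spanned 30.1 kb, of which 58.2% was marked. There the next peak beyond was of H3K27me3 with a score of 67.73, after 66.8 kb, and the one before was of H3K4me1 with a score of 70.91, after 5.08 kb. These 4 peaks, the nearest outside each run, each scored below the median of their own list. The medians were 128.18 for H3K4me1, 163.16 for H3K27ac and 69.08 for H3K27me3, so the H3K27me3 peak was close to its median. Under the H3K27ac peak before miR-290 lay an H3K4me3 peak of 0.223 kb with a score of 76.88, below that list's median of 888.39. Further out, within 25 kb of the miR-302 window, lay an H3K4me3 peak on chromosome 3 from 127201000 to 127202662, with a score of 2693.93.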

How the data were processed

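The authors deposited 1 list of scored peak intervals (mm9) for each of 4 marks. Bowtie 0.12.9, MACS 1.4 and Cufflinks are named without role or order in the submitters' processing notes. The control, the threshold and the handling of duplicates were not stated in those notes or in the lists. No read counts were analysed, so depth is unknown, and a deeper library gives more and wider peaks. Scores, which start near 50 and often stop at 3100, ranked peaks within a list.

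The windows, the lists and the comparisons were chosen with earlier results of these data known. All peaks that overlapped either window by 1 bp or more were described, with the listed microRNAs of both clusters. Intervals were converted to 1-based positions. H3K27ac peaks were joined within 12500 bp. Windows of equal length ran from position 1 to the last peak end of each chromosome. Shares of these windows carry 95% Wilson intervals, which cover counting only. Markers of the cells or feeders were not checked here. Code for overlaps and for windows of equal length was tested on the H3K4me3 peaks of chromosome 3, with planted partner peaks. Python 3.11.15, numpy 2.4.6, pandas 2.3.3, scipy 1.17.1 and matplotlib 3.10.9 were used. Other window limits, score minimums, overlap rules, joining distances and background windows were tried.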

Additional observations from a re-analysis of the deposited data

How the results depend on the processing

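No paired analysis was possible because each mark had 1 library. Of 130 values under other settings, 51 were classed as moved and 79 as the same. The second class allowed smaller changes, so not all of its values were identical. In narrowed windows, for example, the count of H3K4me1 peaks at miR-290 fell from 6 to 4 and was classed as the same. Values follow in the order H3K4me3, H3K27ac, H3K4me1 where 3 are given. Windows widened by 25 kb per side covered 3.11, 18.4 and 16.4 kb at miR-290 and 5.56, 11.4 and 21.3 kb at miR-302, with 13 H3K4me1 peaks at miR-302. Narrowed by 10 kb, H3K27ac and H3K4me1 covered 13.5 and 11.2 kb at miR-290 and 9.85 and 9.99 kb at miR-302. Peaks at or above the median score left 1 H3K4me3 peak (2.28 kb), on both other marks, and 12.3 kb of H3K4me1 at miR-290. At miR-302 they left 3.69 kb of H3K4me3 (0 peaks on both other marks), 4 H3K27ac peaks over 8.05 kb (1 on H3K4me1), 2 H3K4me1 peaks over 5.72 kb (1 on H3K27ac) and 0 H3K27me3 peaks. A score of 100 or more left 13.8 kb of H3K4me1 at miR-290, and at miR-302 5 H3K27ac peaks over 9.43 kb, 4 H3K4me1 peaks over 9.43 kb and 0 H3K27me3 peaks. So the counts of H3K27ac and H3K4me1 peaks rest more on weak peaks at miR-302 than at miR-290. For H3K4me3, 1 of 2 peaks at miR-290 and 2 of 3 at miR-302 reached the median score.

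Among windows with H3K4me3, as much was covered in 25.9%, 0.156% and 8.68% for miR-290 and in 15.4%, 1.70% and 14.4% for miR-302. In lists limited to peaks of median score or more, the widest peak was equalled by 19.9%, 2.17% and 5.05% at miR-290 and by 9.29%, 6.08% and 20.5% at miR-302. Joined within 5 kb, 0.111% of H3K27ac clusters covered as much as miR-290 and 0.796% as much as miR-302 (9.85 kb), which puts miR-302 inside the top 1%. Without H3K27ac near H3K4me3 the shares were 0.272% (14.3 kb) and 6.69% (4.04 kb). These changes follow from the peaks or windows that each setting adds or removes. Read depth was not analysed, so a peak missing from a list cannot be told from one below the threshold.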
